A study of Mus musculus with 2 samples.

Results

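The regions described here are the stretches of open chromatin around microRNA (miRNA) genes of the mouse, mapped by DNase-seq in embryonic neural tube. The members are the 2054 genes of type miRNA on chromosomes 1 to 19 in the GENCODE vM21 annotation, out of 51229 annotated genes of all types there. A miRNA gene was counted as open in a library when the centre of a deposited peak lay within 2 kb of it and more than 1 kb from every protein-coding transcription start site (TSS); such peaks are called distal. By this rule 1003 peaks of replicate 1 and 828 peaks of replicate 2 lay near a miRNA gene, out of 159493 and 118072 distal peaks. The neural miRNA genes are the 10 genes of the Mir9, Mir124 and Mir219 loci.

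DNase-seq digests chromatin in nuclei with the enzyme DNase I and sequences the cut ends, which come mostly from loosely packed DNA. The tissue was neural tube, the embryonic precursor of brain and spinal cord, taken from healthy B6NCrl mouse embryos at 11.5 days with both sexes pooled. There was 1 group with 2 biological replicates, which are separate tissue samples under a single donor label, and each gave 1 library. The labels list an additional sequencer model for replicate 2.

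Peaks numbered 199653 in replicate 1 and 154324 in replicate 2, each 150 bp long, and their authors' scores ran from 2 to 150 and from 1 to 148. What the score measures and the depth of sequencing are unknown, so scores are ranked only within a library. Ranks are given as percentiles, with 100 for the highest. Where raw scores are given as a pair, replicate 1 comes first, and the scores of a pair are not comparable with each other. The labelled tissue was checked by promoter peaks at marker genes. In both libraries, 8 of 8 markers of neural progenitors and 4 of 4 markers of neurons had one. None of the 5 blood or 3 liver markers did in either library. Of 3 muscle markers 1 had a promoter peak in each library, and of 3 endothelial markers 1 had it in replicate 1 and 2 in replicate 2. The share of all coding promoters with such a peak is not given here, so the marker counts alone do not identify the tissue. With 2 libraries of a single group, no test across conditions exists and none was run. In this bulk tissue, a site open in few cells and a site opened weakly in many cells cannot be told apart.

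A miRNA is a short RNA cut from a hairpin in a longer transcript. It guides the Argonaute proteins to messenger RNAs whose sequence pairs with its seed, which is the stretch of bases 2 to 8, and lowers the output of those messages. The promoter of a miRNA gene can lie close to the hairpin or far from it, and one transcript can carry several hairpins. In the nervous system miR-9 is known for its role in neural progenitors, miR-124 for its abundance in neurons and miR-219 for its role in the maturation of oligodendrocytes.

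The mature sequences below, taken from RefSeq records placed on GRCm38, show which of the miRNAs described here share a seed. The seed is in capitals, and 926 of the 2054 genes matched an entry. miR-132 and miR-212 share a seed, as do miR-181a and miR-181c, miR-17 and miR-20a, miR-10a and miR-10b, and miR-196a and miR-196b.
miR-9-5p: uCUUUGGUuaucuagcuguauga
miR-219a-5p: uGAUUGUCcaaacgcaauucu
miR-132-3p: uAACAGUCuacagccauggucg
miR-212-3p: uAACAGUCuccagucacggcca
miR-181a-5p: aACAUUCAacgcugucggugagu
miR-181c-5p: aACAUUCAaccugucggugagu
miR-17-5p: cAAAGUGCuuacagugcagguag
miR-20a-5p: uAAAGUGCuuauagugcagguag
miR-10a-5p: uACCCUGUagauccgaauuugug
miR-10b-5p: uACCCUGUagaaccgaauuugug
miR-196a-5p: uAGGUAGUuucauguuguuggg
miR-196b-5p: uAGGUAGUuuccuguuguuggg

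The peaks below carry the main result. For each neural locus the distal peak with the best mean score rank among those found in both libraries is shown, at the position called in replicate 1. Letters are the plus strand of the RefSeq copy of GRCm38.p6, which is the same assembly as mm10. Capitals mark matches, on either strand, to any of 9 motifs searched. These were CAGCTG and CAGATG (E-boxes bound by proneural factors), ACAATG or its reverse complement CATTGT (bound by SOX factors), TAATTA (bound by homeodomain factors), ATGCAAAT (the octamer of POU factors), TGACGTCA (the cyclic AMP response element, bound by CREB and related factors), CACGTG, the RE1 element of REST and the CTCF core. A match describes the letters only and is not evidence of binding.
Mir9-1, chr3:88214356-88214505: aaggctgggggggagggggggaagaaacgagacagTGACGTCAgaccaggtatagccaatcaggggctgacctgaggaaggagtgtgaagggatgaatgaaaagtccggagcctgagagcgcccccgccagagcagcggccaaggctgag
Mir9-2, chr13:83739696-83739845: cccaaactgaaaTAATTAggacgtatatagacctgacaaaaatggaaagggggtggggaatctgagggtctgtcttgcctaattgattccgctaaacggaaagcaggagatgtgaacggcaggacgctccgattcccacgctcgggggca
Mir9-3, chr7:79504816-79504965: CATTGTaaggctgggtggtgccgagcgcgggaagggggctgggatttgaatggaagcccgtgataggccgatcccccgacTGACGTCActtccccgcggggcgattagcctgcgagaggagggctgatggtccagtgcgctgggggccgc
Mir124a-1, chr14:64589616-64589765: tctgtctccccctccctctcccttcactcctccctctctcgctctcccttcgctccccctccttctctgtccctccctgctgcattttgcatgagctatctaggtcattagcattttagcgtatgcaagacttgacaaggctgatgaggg
Mir124a-2, chr3:17793776-17793925: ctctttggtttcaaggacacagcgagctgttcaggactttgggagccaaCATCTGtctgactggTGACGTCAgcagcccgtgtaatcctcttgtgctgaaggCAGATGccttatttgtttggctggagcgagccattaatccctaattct
Mir124a-3, downstream peak, chr2:180894216-180894365: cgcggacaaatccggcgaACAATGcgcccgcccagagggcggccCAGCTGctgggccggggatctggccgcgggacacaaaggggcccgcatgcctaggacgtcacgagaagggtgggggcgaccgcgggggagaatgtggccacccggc
Mir219a-1 and Mir219c, chr17:34025856-34026005: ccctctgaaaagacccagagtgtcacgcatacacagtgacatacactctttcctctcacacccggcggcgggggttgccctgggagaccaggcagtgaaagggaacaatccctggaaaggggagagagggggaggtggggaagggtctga
Mir219a-2 and Mir219b, chr2:29846316-29846465: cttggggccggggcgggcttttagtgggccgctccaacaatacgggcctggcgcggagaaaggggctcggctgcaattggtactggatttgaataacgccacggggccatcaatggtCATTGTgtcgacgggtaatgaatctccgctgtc

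All 10 neural miRNA genes, at 8 loci, were open in both libraries. Over all miRNA genes 402 of 2054 (19.6%) were open in both, and over the other 2044 genes 392 (19.2%) were. Replicate 1 had 564 open miRNA genes (27.5%) and replicate 2 had 478 (23.3%). The mean share was 25.4% ± 2.96 (SD, n = 2). A further 162 genes were open in replicate 1 only, 76 in replicate 2 only, and 1414 (68.8%) in neither. The neural loci were chosen with earlier results of these data known, and 2 other lists, described below, also had every member open. Merging miRNA genes within 10 kb of each other left 1700 loci, of which 21.1% were open in both libraries, against 20.7% of the 1692 loci that are not neural.

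**Figure D1:**
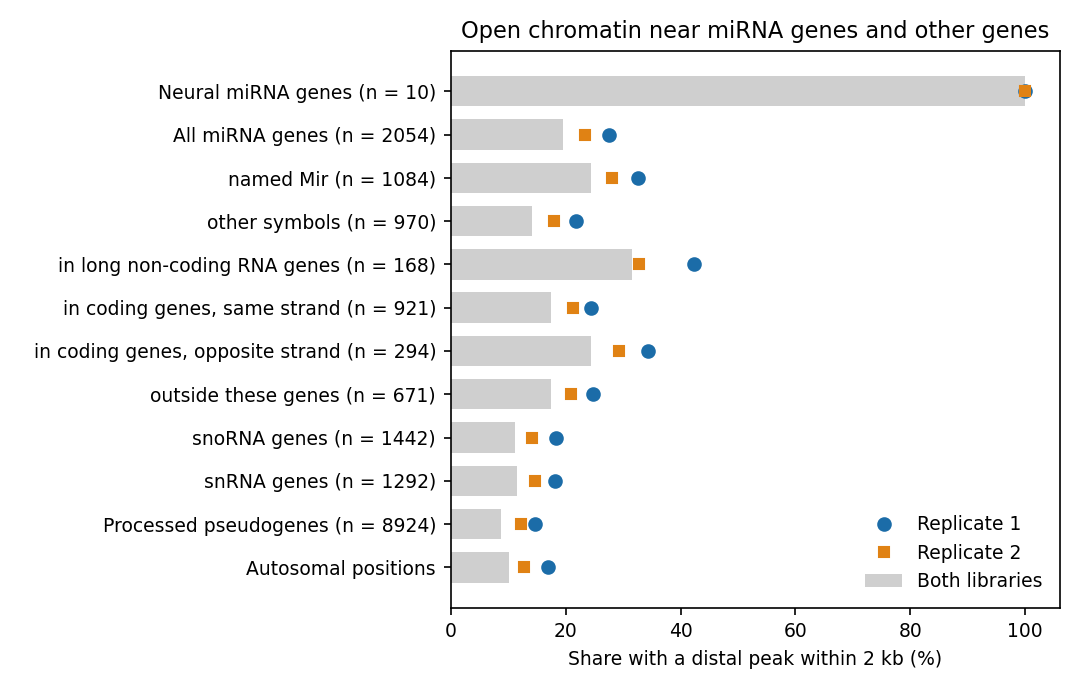
Share of genes with a distal peak within 2 kb, in percent, for miRNA genes by class and for other kinds of gene. Grey bars give the share open in both libraries, blue circles replicate 1 and orange squares replicate 2. The neural genes are at 100% in each, and all miRNA genes are at 19.6% in both libraries, against 11.2% for snoRNA genes and 10.2% for autosomal positions.

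Among the Mir9 genes, Mir9-3 (chr7:79505264-79505353, within the long non-coding gene Mir9-3hg) had the best peak. It lay 373 bp upstream of the hairpin and scored 144 in replicate 1, and its counterpart scored 132 in replicate 2, percentiles of 99.7 and 99.4. Within 2 kb of Mir9-3 there were 4 peaks in replicate 1 and 7 in replicate 2. Mir9-2 (chr13:83738814-83738885, within C130071C03Rik) had 4 and 3 peaks, with best scores of 114 and 84. The best peak of replicate 1, at 683 bp upstream, overlapped no peak of replicate 2. The nearest peak of replicate 2, at 843 bp upstream, ended just short of it and scored 75, a percentile of 87.8. The peak 886 bp downstream was found in both libraries. Mir9-1 (chr3:88215598-88215686, within Gm3764) had 5 and 6 peaks with best scores of 108 and 65, the lowest percentiles among the neural genes at 90.8 and 84.2. Its best peak, centred 54 bp from a long non-coding TSS, was called at the same position in both libraries.

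The Mir124 genes each had several peaks on both sides of the hairpin. Mir124a-1 (chr14:64590657-64590741, within Mir124a-1hg) had 9 and 7, the most of any neural gene in replicate 1. Its best score was 113 in replicate 1, for a peak 4 bp from a long non-coding TSS and 966 bp upstream. In replicate 2 that position scored 64, and the best score, 72, belonged to a peak 606 bp upstream. Mir124a-2 (chr3:17795662-17795770, within Mir124-2hg) had 6 and 7 peaks, led in both libraries by one 1811 bp upstream and 69 bp from a long non-coding TSS, with scores of 123 and 89. Mir124a-3 (chr2:180894040-180894107) lay in no coding or long non-coding gene and had 5 and 3 peaks. In each library 3 of them were in the top 10% of the list, with scores of 125, 131 and 126 in replicate 1 and 109, 104 and 86 in replicate 2. No other neural gene had 3 such peaks in both libraries.

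The Mir219 loci each hold a pair of miRNA genes on opposite strands, so that the 4 genes have 2 sets of peaks. Mir219a-2 (chr2:29845631-29845727) and Mir219b shared 4 and 5 peaks, and the best scored 142 in replicate 1 and 112 in replicate 2, at 664 and 624 bp upstream of Mir219a-2. Mir219a-1 (chr17:34024983-34025092) and Mir219c had 1 peak, called at the same position in both libraries with scores of 137 and 111. This pair lies 303 and 332 bp from a TSS of Ring1, which encodes a Polycomb protein, so that 45.7% of the window of Mir219a-1 was available for a distal peak. The peak itself is 1251 bp from that TSS. It was lost when distal meant over 2 kb from a TSS, or when all transcripts of coding genes gave TSSs, and under either rule 8 of 10 neural genes were open in both.

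**Figure D2:**
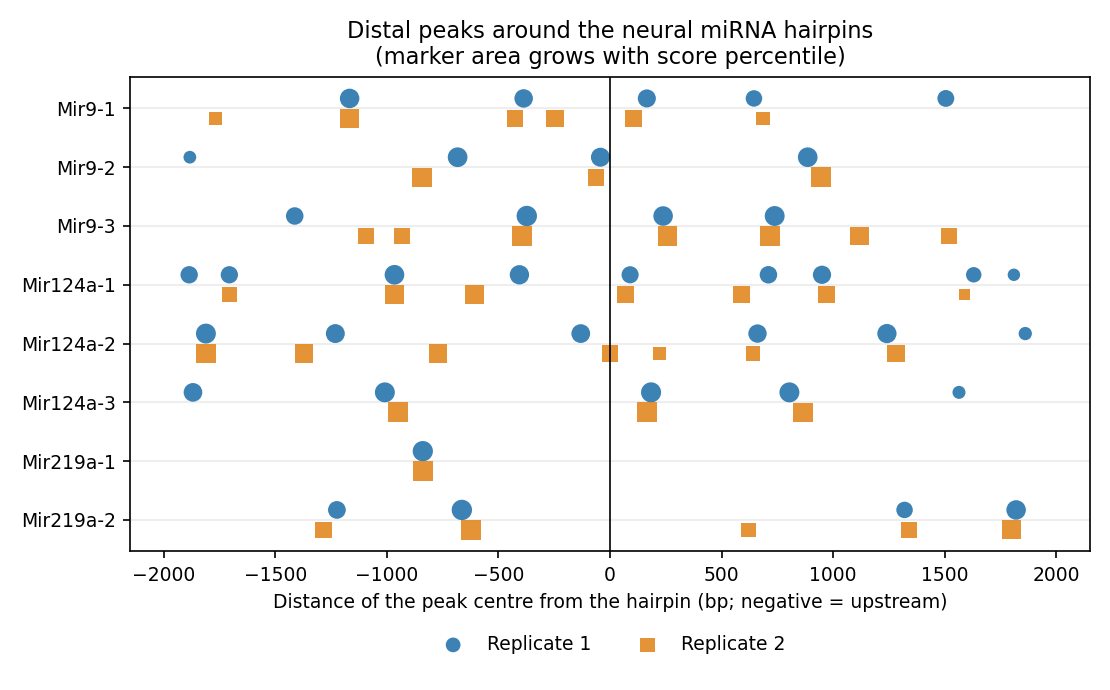
Positions of the distal peaks around the hairpin at each neural locus, in bp from the hairpin with upstream negative. Blue circles are replicate 1, orange squares replicate 2, and marker area grows with the score percentile; Mir219c and Mir219b have the same peaks as Mir219a-1 and Mir219a-2. The Mir219a-1 locus has 1 peak in each library and Mir124a-1 has 9 and 7.

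The neural genes had more and higher-ranked peaks than the median miRNA gene. Their median was 4 peaks in replicate 1 (range 1 to 9) and 5 in replicate 2 (range 1 to 7), whereas the median of the other genes was 0 in both. Among other miRNA genes open in both libraries the medians were 2 and 1. The best peak of a neural gene had a median percentile of 97.3 in replicate 1 (90.8 to 99.7) and 95.2 in replicate 2 (84.2 to 99.4), against 74.5 and 68.0 for the other genes open in both. All 10 neural genes had a peak in the top 10% by score in replicate 1, and 8 did in replicate 2, where Mir124a-1 and Mir9-1 did not. Of the other genes open in both, 20.2% and 13.0% had one, and of all 2044 other genes 3.91% and 2.50% did. These values describe few loci. Each Mir219 pair shares its peaks, so its values enter the medians and counts 2 times. The pairs had percentiles of 99.4 and 95.6 and of 98.1 and 95.4, all above the medians. The ranges of the neural genes lie within those of the others, which reached a percentile of 99.8 in each library.

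**Figure D3:**
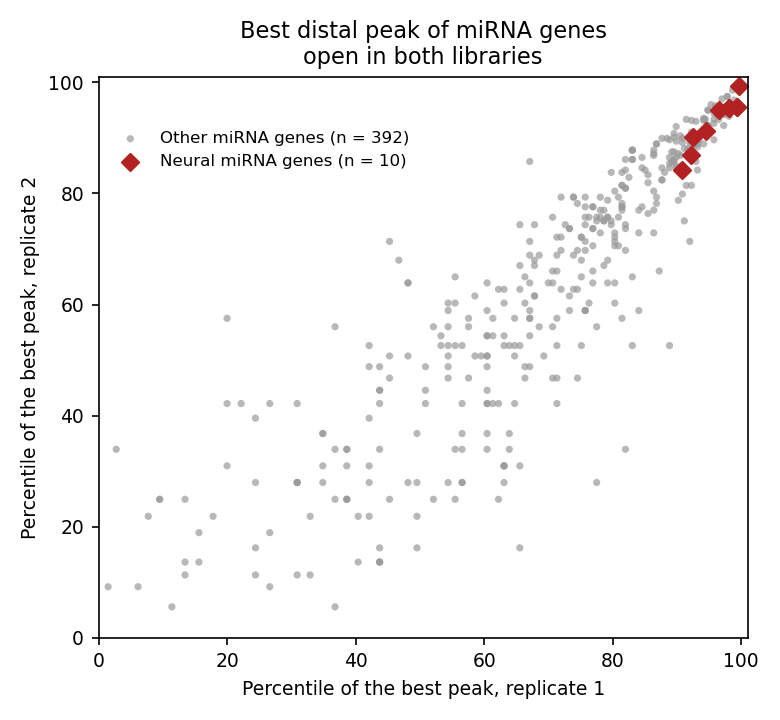
Score percentile of the best distal peak in replicate 1 (x) and replicate 2 (y) for each miRNA gene open in both libraries. Red diamonds are the 10 neural genes, some with the same values, and grey points the other 392. The neural genes lie between 90.8 and 99.7 in replicate 1 and between 84.2 and 99.4 in replicate 2, with many other genes beside them.

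Hotspots, the broader regions that the authors called beside the peaks, were a second readout of the same libraries. The hairpin itself lay in a hotspot of both libraries for 224 of 2054 miRNA genes (10.9%), for all 10 neural genes and for 214 of the other genes (10.5%). A hotspot counted here could also cover a coding TSS, as the one over Mir219a-1 and Mir219c covers that of Ring1. The deposited −log10 q-value was 100, its highest value, for the hotspots of all neural hairpins except that of Mir9-1 in replicate 2, at 5.70. The share of other hotspots with that highest value is not given here, so it does not set the neural hairpins apart. Hotspot lengths differed between the libraries at some loci. The one over Mir9-2 spanned 8327 bp in replicate 1 and 1530 bp in replicate 2, and the one over Mir219a-1 spanned 2613 and 2524 bp. Some miRNA genes that lie at or beside the neural hairpins were open through the same peaks. They were Mir3078 beside Mir124a-1, Mir3093 beside Mir9-1, and Gm25641, which spans Mir9-1 on the opposite strand. All were counted among the other genes. Without these 3, 19.1% of the other genes were open in both.

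The sequence TGACGTCA was found in 4 of the 38 peaks around the neural genes in replicate 1 (10.5%) and in 4 of 39 in replicate 2 (10.3%). The share was 0.798% and 0.966% of all distal peaks near miRNA genes, 8 peaks in each library. It was 0.295% and 0.285% of all distal peaks and 1.33% and 1.43% of the peaks at coding promoters, which are also 150 bp long. The 4 neural peaks were those of Mir9-1, Mir9-3, Mir124a-2 and Mir124a-3, and each was called in both libraries. Of the 3 peaks near Mir212 and Mir132 in each library 2 also held it, one of them at 2 positions in the sequence below. These hairpins give miRNAs that are known as products of a single transcript induced through CREB. The remaining peaks with the motif were 2 overlapping ones near Mir193b in replicate 1, and those near Mir8094 and near Gm47299 and Gm47305 in replicate 2. The counts are small and no test was run on them. The peaks not yet shown are printed here so that the matches can be seen in place.
Mir124a-3, upstream peak, chr2:180892956-180893105: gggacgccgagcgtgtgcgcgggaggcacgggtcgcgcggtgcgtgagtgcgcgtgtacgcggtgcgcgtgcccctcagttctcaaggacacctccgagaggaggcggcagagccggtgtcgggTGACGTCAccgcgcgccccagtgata
Mir212 and Mir132, first peak, chr11:75173196-75173345: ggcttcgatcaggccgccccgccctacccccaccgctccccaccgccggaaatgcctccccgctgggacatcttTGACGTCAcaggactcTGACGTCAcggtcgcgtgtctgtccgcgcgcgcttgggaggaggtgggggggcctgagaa
Mir212 and Mir132, second peak, chr11:75173536-75173685: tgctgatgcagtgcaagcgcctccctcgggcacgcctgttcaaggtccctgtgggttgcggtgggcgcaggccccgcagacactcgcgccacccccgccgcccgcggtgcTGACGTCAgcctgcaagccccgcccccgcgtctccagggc

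For the other motifs the shares were as follows. CAGCTG was in 18.4% and 12.8% of them, against 15.8% and 17.2% of all distal peaks, and CAGATG in 13.2% and 10.3%, against 17.2% and 16.7%. ACAATG was in 10.5% and 7.69%, against 9.54% and 7.95%. TAATTA was in 4 neural peaks of replicate 1 and in none of replicate 2, against 3.85% and 2.53% of all distal peaks. CACGTG was in 1 neural peak of each library, against 2.90% and 3.19%. The CTCF core was in none of replicate 1 and 1 of replicate 2, against 3.99% and 4.58%, and ATGCAAAT in none, against 1.27% and 0.957%. No neural peak held the RE1 element, against 0.248% and 0.296%, and near all miRNA genes 3 peaks in each library did, those at Mir6901, Mir692-2 and Gm47312. Over 38 and 39 neural peaks, counts of 0 and 1 do not set them apart from these shares.

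Distal peaks near miRNA genes as a whole ranked above distal peaks in general. Their median percentile was 57.6 in replicate 1 and 52.6 in replicate 2, against 43.7 and 42.2 for all distal peaks. In the top 10% by score were 10.1% and 7.13% of them, against 3.83% and 2.70%. A peak of the other library overlapped 55.6% and 67.8%, against 48.3% and 66.5%. Of these peaks 6.08% and 6.64% were within 500 bp of a long non-coding TSS, against 1.98% and 2.29%. Around the neural genes 23.7% and 28.2% of the peaks were that close to such a TSS. What part the promoters of host transcripts have in these ranks was not tested.

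Peaks were spread across the window on both sides of the hairpin. Over the 1665 miRNA genes whose whole window lay outside 1 kb of a coding TSS, 50.4% of 704 peaks in replicate 1 and 51.7% of 604 in replicate 2 were upstream of the hairpin. Within 500 bp of it were 28.6% and 31.0%, and the median distance was 930 and 939 bp. Centred inside the hairpin were 24 and 31 peaks. Their density there was not compared with that of the flanks.

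**Figure D4:**
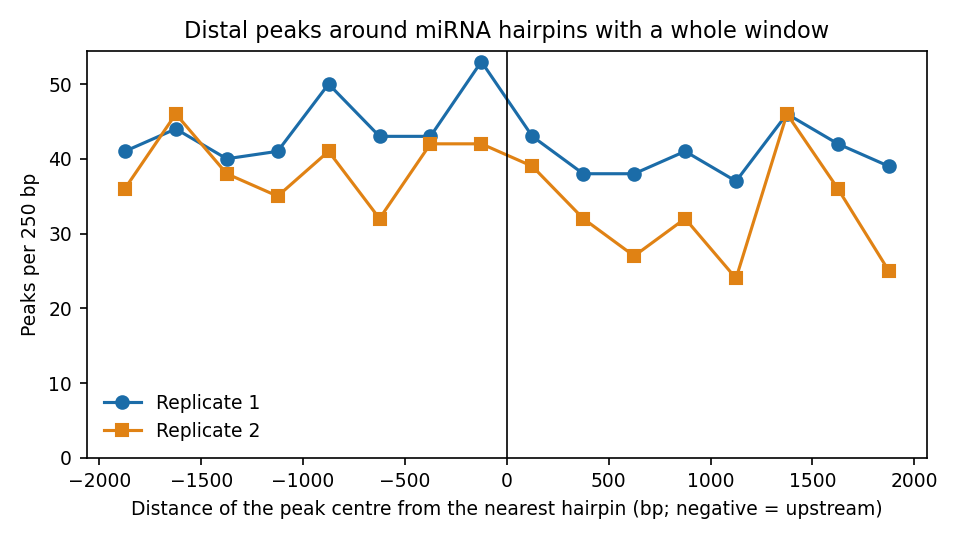
Number of distal peaks per 250 bp by distance from the nearest hairpin, with upstream negative, for miRNA genes with a whole window. Blue circles are replicate 1 and orange squares replicate 2. Bins hold 37 to 53 peaks in replicate 1 and 24 to 46 in replicate 2, with no single summit in the flanks that both libraries show. The bins leave out peaks centred inside a hairpin, 24 in replicate 1 and 31 in replicate 2.

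The share of open miRNA genes varied with where the hairpin lies. Of the 168 in long non-coding genes, 42.3% were open in replicate 1, 32.7% in replicate 2 and 31.5% in both. In coding genes on the opposite strand 24.5% of 294 were open in both, on the same strand 17.4% of 921, and outside these genes 17.4% of 671. Genes named Mir, 1084 in number, were open in both in 24.4% of cases and the 970 with other symbols in 14.2%. The median share of the window that the reference marks as repeats was 17.3% for the former and 30.9% for the latter. It was 16.3% for genes open in both, 25.8% for genes open in neither and 12.2% for the neural genes. How far repeats limit the calling of peaks was not tested.

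Distance to coding promoters also went with the share, although peaks within 1 kb of a coding TSS were left out. Of miRNA genes under 1 kb from a coding TSS 29.6% were open in both libraries, and the share was 25.8% at 1 to 3 kb, 21.1% at 3 to 10 kb, 22.6% at 10 to 50 kb and 11.7% beyond 50 kb. The same rule gave 11.2% for 1442 snoRNA genes, 11.6% for 1292 snRNA genes, 8.79% for 8924 processed pseudogenes and 10.2% for autosomal positions. The 527 genes of type misc_RNA, at 25.2%, and the 5209 long intergenic RNA genes, at 52.3%, were above the miRNA genes, and the latter are longer and so have wider windows.

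The miRNA genes were then grouped by the tissue or process they are known for. Of 14 lists other than Mir9, Mir124 and Mir219, 10 were above the 19.6% of all miRNA genes. With only symbols that start with Mir, where the share of all genes was 24.4%, 8 were above it. The let-7 family, with 2 of 10 genes open in both libraries, and the pluripotency miRNAs, with 3 of 14, were above 19.6% but below 24.4%. Among other miRNAs of neurons and neural progenitors 18 of 38 (47.4%) were open in both libraries, at 15 of 31 loci, and 2 in replicate 1 only. Mir132 and Mir212, which lie next to each other within 1700016P03Rik on chromosome 11, led them with 3 peaks in each library and best scores of 124 and 109. Mir181c and Mir181d shared 3 and 1 peaks with best scores of 122 and 100. Mir125b-2, in the transcript of Mir99ahg, also had 3 and 1, with 116 and 85. The 2 genes open in replicate 1 only were Mir125a, whose 1 peak scored 63, and Mir7-1, whose 3 peaks had a best score of 42. The 18 genes open in neither included Mir218-1, Mir218-2, Mir138-1, Mir138-2 and the 4 genes of Mir181a and Mir181b.

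**Figure D5:**
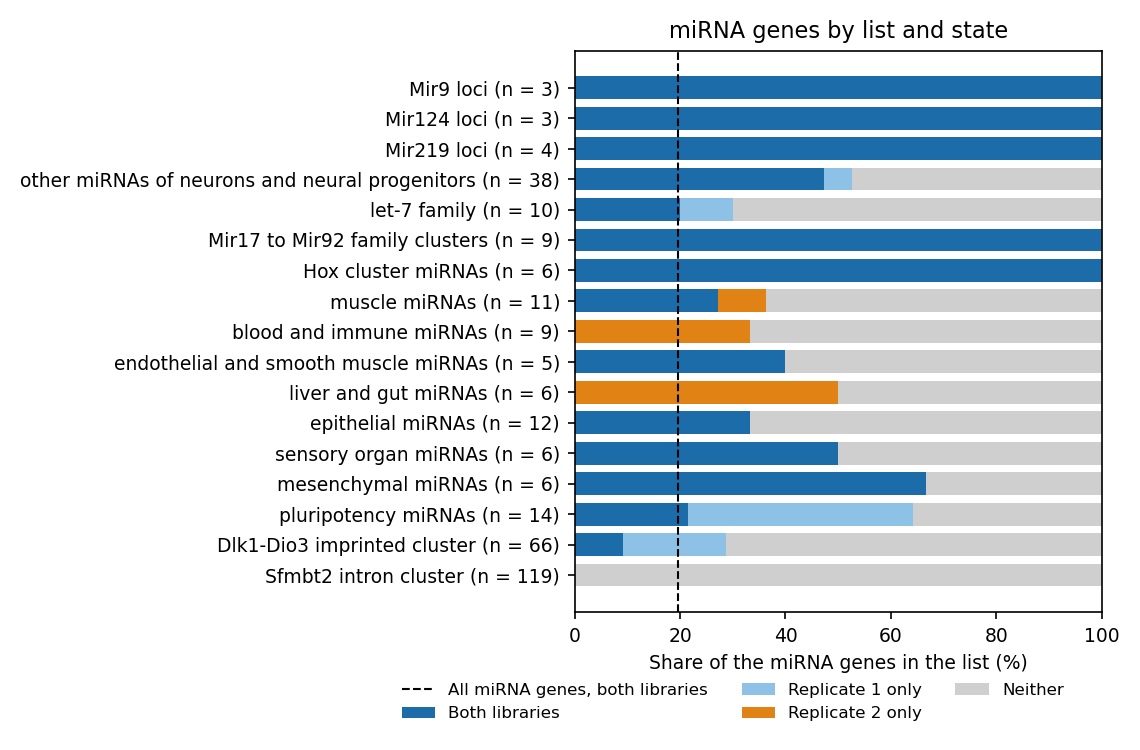
Share of the miRNA genes of each list, in percent, that were open in both libraries (dark blue), in replicate 1 only (light blue), in replicate 2 only (orange) or in neither (grey). The dashed line is the 19.6% of all miRNA genes. Mir9, Mir124, Mir219, Mir17 to Mir92 and Hox cluster genes are at 100%, while the Sfmbt2 cluster has no open gene.

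Copies of one mature miRNA can come from several loci, and these were not always open together. Of 38 mature sequences with 2 or more loci, 10 had every locus open in both libraries, 7 some and 21 none. Over all miRNA loci 21.1% were open in both. The 2 arms of a hairpin count as separate sequences, as for miR-9-5p and miR-9-3p, so some loci enter more than once. The RefSeq records held no Mir124 entry, so miR-124 is not among them. Sequences open at every locus included miR-9-5p, with 3 of 3, and miR-219a-5p, miR-125b-5p, miR-129-5p and miR-196a-5p, with 2 of 2. For miR-128-3p only Mir128-2, for miR-135a-5p only Mir135a-2 and for miR-7a-5p only Mir7-2 was open in both. The seed ACAUUCA is carried by miR-181a and miR-181b, with no peak at any of their loci in either library, and by miR-181c and miR-181d, which were open in both. The examples in this paragraph were chosen after their values were seen.

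All 6 miRNA genes in Hox clusters were open in both libraries. Members of the miR-10 and miR-196 families are known to target Hox messages. Mir10a, 993 bp from a TSS of Hoxb4, had 3 and 2 peaks and best scores of 110 and 100. Mir615, in an intron of Hoxc5, had 2 and 3 peaks with 118 and 87. Mir196b, within Hoxa9, had 7 and 6 peaks with 103 and 69, among the 10 highest counts of any miRNA gene. Mir10b had 94 and 63 as best scores and Mir196a-1 had 86 and 51. Except for Mir196a-1, the windows of these named genes were shortened by a coding TSS.

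The 9 genes of the Mir17 to Mir92 family clusters, known for promoting proliferation, lie at 2 loci and were all open in both libraries. With the higher-scoring 50% of peaks 3 of the 9 were, within 1 kb 4, and when the peaks of the libraries had to overlap, or all transcripts gave TSSs, 6. Over all miRNA genes the shares under these settings were 13.9%, 11.1%, 18.3% and 17.6%, in that order. Mir17, Mir18 and Mir19a shared 5 and 2 peaks, the best with scores of 130 and 105 at 1520 bp upstream of Mir17. For Mir20a and Mir19b-1, further from that peak, the best scores were 58 and 18. In the let-7 family, known for its rise as cells differentiate, 2 of 10 genes were open in both, against 19.6% of all miRNA genes. With a window of 5 kb 7 of 10 were, against 35.1% of all miRNA genes. Mirlet7i had 6 and 2 peaks with best scores of 129 and 113, and Mirlet7e 2 and 1 with 124 and 94. Mirlet7d had 1 peak in replicate 1 only, which scored 29.

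Lists for other tissues ranged from no gene to most genes open in both. The share was 19.6% over all miRNA genes and 24.4% over those named Mir. Among mesenchymal miRNAs 4 of 6 were open in both, led by Mir199b with best scores of 114 and 86 and Mir199a-2 with 104 and 74. Sensory organ miRNAs had 3 of 6, Mir182, Mir96 and Mir183, all at 1 locus and with best scores of 55 to 69 in replicate 1 and 22 to 30 in replicate 2. Epithelial miRNAs had 4 of 12, with Mir203 at 103 and 74 and Mir375, which is known from pancreatic islets, at 70 and 41. Of the endothelial and smooth muscle miRNAs 2 of 5, the neighbours Mir143 and Mir145a, were open in both through the same peaks, with best scores of 97 and 79. Muscle miRNAs had 3 of 11 (27.3%), Mir499, Mir206 and Mir208b, each with 1 peak per library. These lists are small, and no test was run on them.

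No blood and immune miRNA of 9, and no liver and gut miRNA of 6, was open in both libraries. Mir144, Mir451a and Mir451b, the erythroid cluster, had 1 common peak in replicate 2 with a score of 19. Mir192 and Mir194-2 shared a peak in replicate 2 that scored 15, and Mir802 had one that scored 25. These peaks had percentiles of 21.9 to 48.8. In replicate 2 alone, 3 of the 9 blood and immune genes and 3 of the 6 liver and gut genes were thus open, against 23.3% of all miRNA genes, and in replicate 1 none was, against 27.5%. The lists are small, and their counts do not set them apart from other miRNA genes.

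Pluripotency miRNAs had 3 of 14 genes open in both (21.4%, against 19.6% of all miRNA genes). These were Mir293, Mir294 and Mir295, which share their best peak, with scores of 76 and 31. A further 6 were open in replicate 1 only, Mir290a, Mir290b and Mir291a among them with a score of 31. The large imprinted cluster between Dlk1 and Dio3 had 6 of 66 genes (9.09%) open in both and 13 in replicate 1 only. Mir1906-1, within Meg3, led those open in both, with 2 peaks in each library and best scores of 87 and 65. None of the 119 miRNA genes within the Sfmbt2 intron cluster was open in either library, and a median of 36.4% of their windows was marked as repeats. Leaving out that cluster, an alternative chosen after seeing the data, put the share of all miRNA genes at 20.8%, and leaving out both clusters put it at 21.2%.

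The genes with the most peaks and the highest-ranked shared peaks were also taken over all miRNA genes. By the mean of both libraries Mir124a-1, with 9 and 7 peaks, and n-TStga1, with 8 and 8, came first together. Gm44463, 3279 bp from a TSS of Hoxd9, with 8 and 7, Mir193a with 10 and 5, and Mir3093, beside Mir9-1, with 7 and 8, shared the next place. Mir3078, beside Mir124a-1, followed with 8 and 6. Gm25993 and Mir124a-2, each with 6 and 7, and Mir125b-1 and Mir196b, each with 7 and 6, had equal means. The shared peak with the best mean rank lay 398 bp upstream of Mir210, whose miRNA is known to be induced by hypoxia, and scored 145 and 136. It holds a match to the CTCF core. The next was that of Mir9-3, followed by 2 peaks near Mir7655 in an intron of Mllt10, with scores of 142 and 131 and of 139 and 133, one of them 2 bp from a long non-coding TSS. Of the 10 best shared peaks, 3 belong to neural loci, those of Mir9-3, Mir219a-2 and Mir219a-1. Among all distal peaks near miRNA genes, 38 of 1003 in replicate 1 and 39 of 828 in replicate 2 lay near neural genes. The peaks of Mir210 and, for the let-7 family, Mirlet7i are printed to show high-ranking peaks at miRNA genes other than the neural ones.
Mir210, chr7:141221816-141221965: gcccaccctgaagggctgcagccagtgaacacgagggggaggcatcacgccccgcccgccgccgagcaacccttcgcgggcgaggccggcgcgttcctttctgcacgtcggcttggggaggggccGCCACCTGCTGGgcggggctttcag
Mirlet7i, chr10:122986036-122986185: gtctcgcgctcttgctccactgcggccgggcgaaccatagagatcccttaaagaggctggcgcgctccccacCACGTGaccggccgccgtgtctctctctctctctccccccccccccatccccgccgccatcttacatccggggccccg

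The libraries ranked the miRNA genes open in both alike. Over the 402 genes open in both, the percentile of the best peak had a Spearman correlation of 0.925 and a Pearson correlation of 0.885 between libraries. Genes in clusters share peaks, so these points are not independent. The 162 and 76 genes open in 1 library only are not in these correlations. Genes open in 1 library only had low-scoring peaks there. The median best percentile was 26.6 for those open in replicate 1 only, against 75.1 for genes open in both, and 13.6 for those open in replicate 2 only, against 68.9. In the other library 16 of the 162 (9.88%) and 9 of the 76 (11.8%) had a hotspot in the same window, outside 1 kb of a coding TSS. The one gene with a top 10% peak in a single library was Mir7000, within Mapk8ip1, whose 1 peak in replicate 1 scored 142, a percentile of 99.4, with none in replicate 2.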

How the data were processed

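DNase-seq was done on 2 libraries of mouse neural tube. The authors called peaks and hotspots library by library on mm10, per the deposited files. Each peak carries a deposited score, a whole number of unstated meaning, and each hotspot a deposited −log10 q-value, from 1.30 to 6.00 and then 100. Aligner, caller and calling threshold were not given in the sources used here. Sequencing depth is unknown. The labels define no batch beyond the sequencer models, so batch and library cannot be told apart.

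Repeated positions were removed (45 and 22). Distances ran from the centre of a peak to the miRNA gene of GENCODE vM21 and to 54340 TSSs of protein-coding transcripts; hotspots were counted on overlap. Peaks were shared when they overlapped by at least 1 bp. Promoter peaks of markers lay within 500 bp of a TSS, and promoter peaks in motif counts had their centre within 1 kb of one. Genes were counted with Python 3.11.15, numpy 2.4.6, pandas 2.3.3 and pysam 0.24.0, and the counting was tested on planted data. Sequences came from the GRCm38.p6 genome and the RefSeq miRNA table. No p-value was computed, since there is 1 group of 2 libraries.

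The members and lists were chosen with earlier results of these data known. The name pattern for Mir124 was corrected after the files were seen, because it had also matched Mir1247 and Mir1249, which are other genes. Counts of hairpins in hotspots, shares of masked sequence and values of genes open in 1 library were added after seeing the data. Named are all Mir9, Mir124 and Mir219 genes; in each list up to 5 genes open in both libraries by mean score rank and up to 3 open in 1; the 10 miRNA genes with the most peaks; the 10 best shared peaks; and genes with a top 10% peak in 1 library and none in the other. Others are named as examples of a count and were chosen after their values were seen. Alternatives varied the window, the TSS rule, the peaks used, the unit counted and the libraries.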

Additional observations from a re-analysis of the deposited data

How the results depend on the processing

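The share of miRNA genes open in both libraries was 19.6%, and the neural genes exceeded the other miRNA genes by 80.8 percentage points. With a window of 1 kb these were 11.1% and 89.3 points, with 5 kb 35.1% and 65.2, without exclusion by TSS 26.6% and 73.8, over 2 kb from a TSS 16.0% and 64.3, with the higher-scoring 50% of peaks 13.9% and 86.5, and with symbols that start with Mir 24.4% and 76.4. Using TSSs of all transcripts of coding genes gave 62.7 points. Leaving out one library gave 23.3% to 27.5% and 72.9 to 77.1 points. Peaks near miRNA genes numbered 492 and 421 within 1 kb, 2154 and 1798 within 5 kb, 1585 and 1384 without exclusion by TSS, and 586 and 452 in the higher-scoring 50%, against 1003 and 828. These settings change the area or the peaks searched by construction. The neural share was 100% under all settings run except over 2 kb from a TSS and with TSSs of all transcripts, at 80.0% in both. Of 187 counts for single lists under the alternatives, 165 were within 1.5 times the reported count, a limit that lets 9 fall to 6, and 22 were not, 5 of them within 1 kb and 6 within 5 kb. Pluripotency miRNAs, for example, had 0 of 14 open within 1 kb and 14 within 5 kb. Between 7 and 11 of the 14 other lists were above all miRNA genes under the settings run. The neural excess kept its direction in each. Hotspots gave no number of peaks. The depth of the libraries is unknown, so a gene without a peak was not shown to be closed.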

Other observations

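Mir1897, in the transcript Sox2ot and 11863 bp from a TSS of Sox2, which encodes a factor of neural progenitors, had 6 peaks in replicate 1 and 5 in replicate 2, with best scores of 102 and 66. Mir3089 had 7 and 5 peaks with best scores of 128 and 82 and lay outside coding and long non-coding genes. Both were picked after their values were seen.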
